A study of Mus musculus with 4 samples.

Results

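The genes described here are 39 genes of the p53 pathway and of the cell death machinery, out of 28765 genes in the deposited expression table. They were taken as a list of symbols and not by a rule on their values, although earlier results of these data were known. All 39 were found through their Ensembl identifiers. Of the 39, 2 form the p53 core (Trp53 and its inhibitor Mdm4), 26 are established p53 targets, and 11 belong to the apoptosis machinery, which is described apart from the targets. RNA-seq was made from embryos of CD-1 mice, an outbred stock, at embryonic day 9.5. The 4 groups were NTD brain, NTD spine, control brain and control spine, with 1 library each. NTD embryos, labelled as folate deficient with neural tube defects, came from parents fed a diet low in folate for over 8 weeks, and their mothers were injected with methotrexate (MTX), an inhibitor of folate metabolism, at 1.5 mg/kg on embryonic day 7.5. The labels carry the same protocol text for the control libraries, so whether control mothers had the diet or an injection is not known. NTD embryos were picked by their visible defect, which makes treatment and defect inseparable in these groups, and the number of embryos behind a library is not stated.

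The p53 protein is a transcription factor that DNA damage and nucleotide shortage stabilise. It switches on genes that halt the cell cycle, repair DNA or start apoptosis, and also Mdm2, whose product marks p53 for destruction and so closes a feedback loop. In the mitochondrial route to apoptosis, BH3-only proteins release the effectors Bax and Bak1 from anti-apoptotic relatives of Bcl2, after which Apaf1 and Casp9 start the caspase cascade. In mouse embryos, excess p53 activity, as in embryos that lack Mdm2, is lethal, and several mouse mutants with neural tube defects have excess apoptosis in the neuroepithelium.

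The p53 response element is a pair of 10-base motifs with a short spacer, and promoter sequences are shown for the targets that hold one close to a start site. RefSeq promoter windows of GRCm38.p6, from 250 bases before to 50 bases after each annotated start, were found for 34 of the 39 members, in 49 windows. The canonical p53 response element was searched in them with a spacer of at most 13 bases and at most 1 mismatch over both motifs. It reads the same on both strands, so each window was searched once. It was found in 4 of the 21 p53 targets with a window and in 0 of the 11 genes of the apoptosis machinery, against 1.24% of all 27025 genes in the promoter table. Each match was at 1 mismatch. The 4 sequences are written 5′ to 3′ on the strand of the gene, with the 10-base motifs in capitals. For Polk and Cdkn1a the match lay in 1 of their 2 windows.
Bax, chr7:45467060-45467140, minus strand: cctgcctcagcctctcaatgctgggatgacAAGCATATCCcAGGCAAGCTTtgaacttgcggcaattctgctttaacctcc
Ccng1, chr11:40755432-40755511, minus strand: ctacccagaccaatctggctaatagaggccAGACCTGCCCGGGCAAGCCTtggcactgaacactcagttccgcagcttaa
Polk, chr13:96519368-96519437, minus strand: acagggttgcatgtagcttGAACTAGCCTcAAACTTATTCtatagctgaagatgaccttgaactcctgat
Cdkn1a, chr17:29090898-29090977, plus strand: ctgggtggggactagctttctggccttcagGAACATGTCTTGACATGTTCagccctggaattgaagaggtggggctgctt
Perp, Pmaip1, Rrm2b, Trp53inp1 and Zmat3 have no window in the table. A match describes the letters only and is not evidence of binding.

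Levels are the deposited FPKM, which is reads scaled to exon length and to the library total. Multiplied by exon length they gave back whole reads for all 39 members, at library totals of 16272101 to 16911677 reads. A fold is the ratio of these reads per library total, and its 95% interval is exact but covers counting error alone, since each group has 1 library and no spread between embryos can be seen. The regional labels held: markers of forebrain and midbrain summed to 97.0 FPKM in NTD brain and 107 in control brain, against 11.1 in NTD spine and 19.3 in control spine. Trunk Hox genes summed to 12.5 FPKM in NTD brain and 197 in NTD spine, against 0.239 in control brain and 191 in control spine. The library labelled NTD brain thus also held RNA of trunk Hox genes, and the source of that RNA was not tested. Heart genes summed to 209 FPKM in NTD brain against 51.4 in control brain. They summed to 505 FPKM in NTD spine against 747 in control spine. Primitive erythroid genes summed to 4840 FPKM in NTD brain and 4501 in control brain, and 3663 in NTD spine against 7018 in control spine, where all 10 were lower in NTD. The part of these cell types in the members' values was not tested. In bulk tissue, fewer cells of a type and less RNA per cell cannot be told apart.

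Trp53 RNA was abundant and nearly the same in all 4 libraries. Trp53 (ENSMUSG00000059552, chromosome 11, 69580359 to 69591873, plus strand, GRCm38), which encodes p53 itself, had 62.1 FPKM in NTD brain and 61.3 in control brain. It had 62.2 FPKM in NTD spine and 62.1 in control spine. Its fold was 1.01 in brain (interval 0.971 to 1.06) and 1.002 in spine (0.959 to 1.05), and both intervals include equality. Set against genes of like GC content and length, the log2 ratio of Trp53 was 0.09 in brain and 0.11 in spine, beside 0.02 and 0.00 as measured. The adjusted brain fold of 1.07 lay past the counting interval. The level stood between percentiles 93.8 and 94.1 of the 12940 compared genes, those whose mean over the 4 libraries reached 1 FPKM. Mdm4, which binds p53 and blocks its activity, had 9.09 FPKM in NTD brain and 9.15 in control brain, and 10.3 in NTD spine and 10.6 in control spine. Named pseudogenes of Trp53 and Mdm4 exist, and how reads shared with them were counted is not stated. The protein level of p53 was not measured.

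**Figure D1:**
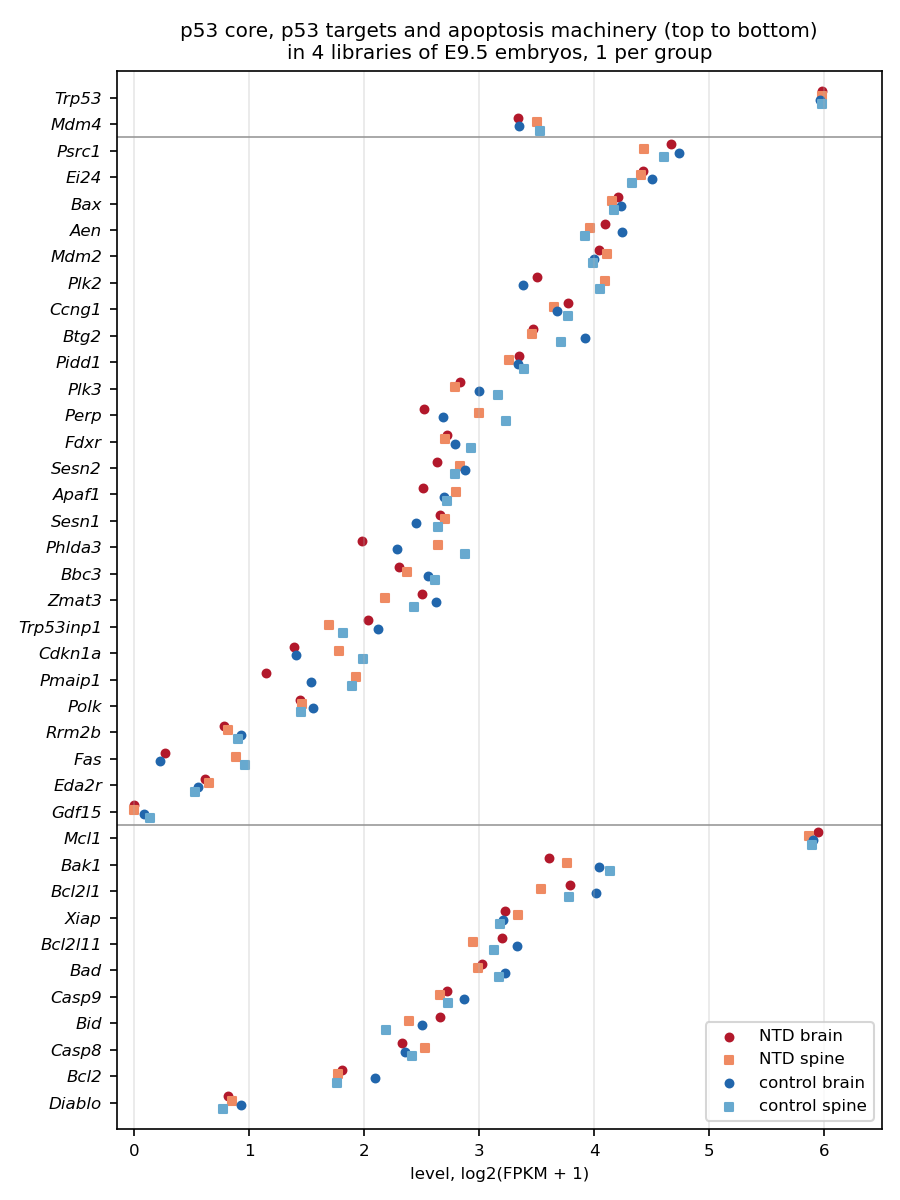
Level of each of the 39 genes in the 4 libraries, as log2(FPKM + 1), with the p53 core, the p53 targets and the apoptosis machinery from top to bottom. Each point is 1 library, circles are brain and squares are spine. Trp53 and Mcl1 lie near 60 FPKM in all libraries, whereas Gdf15 had 0 reads in both NTD libraries.

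No p53 target was past 1.5-fold in NTD brain or in NTD spine, on the log2(FPKM + 1) scale, which understates the folds of low genes. In folds of reads, only Pmaip1 in brain passed it, on the lower side. Of the 26 targets, 22 were among the compared genes. In brain, 5 of these 22 had a higher and 17 a lower point value in NTD, with a median log2 ratio of -0.10 beside -0.03 for all compared genes, and a range of -0.45 to 0.21 over genes. Over the alternatives this median lay between -0.13 and -0.03, nearest to 0 after adjustment for GC content and length. In spine, 9 were higher and 13 lower in NTD, with a median of -0.13 beside -0.04 for all compared genes, and a range of -0.38 to 0.12 over genes. Over the alternatives this median lay between -0.14 and -0.01, nearest to 0 with a filter of 5 FPKM. Among all compared genes, 4.58% were past 1.5-fold in brain and 4.38% in spine. For all 22 targets the upper end of the counting interval of the fold lay under 1.5 in both tissues, which holds for 87.8% of all genes with an interval in brain and 90.2% in spine. The counting intervals thus lie below a 1.5-fold higher level in NTD for each of these 22 targets, while variation between embryos was not measured.

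The feedback and cell cycle arrest genes differed by less than 25% by their point values in either tissue, in either direction. Mdm2, the p53 target that limits p53, had 15.4 FPKM in NTD brain and 14.97 in control brain, a fold of 1.03 (0.953 to 1.11). It had 16.3 FPKM in NTD spine and 14.9 in control spine, a fold of 1.09 (1.01 to 1.18). Cdkn1a (ENSMUSG00000023067, chromosome 17, 29090976 to 29100727, plus strand) encodes p21, the inhibitor of cyclin-dependent kinases through which p53 stops the cell cycle, and carries the promoter element printed above. It was low, with 1.62 FPKM (95 reads) in NTD brain and 1.65 FPKM (99 reads) in control brain, a fold of 0.985 (0.736 to 1.32). It had 2.44 FPKM (144 reads) in NTD spine and 2.98 FPKM (172 reads) in control spine, a fold of 0.820 (0.653 to 1.03). Both intervals include equality. Ccng1, which encodes cyclin G1 and also carries a printed element, had 12.7 FPKM in NTD brain and 11.8 in control brain. It had 11.5 FPKM in NTD spine and 12.6 in control spine, so the direction differed between the tissues. Sesn1, a sestrin that restrains growth signalling, had 5.34 FPKM in NTD brain and 4.48 in control brain. Its brain fold of 1.19 (1.02 to 1.39) was the only one among the members with an interval above 1, while spine had 5.52 FPKM in NTD and 5.25 in control. The related Sesn2 had 5.22 FPKM in NTD brain and 6.35 in control brain, a fold of 0.823 (0.705 to 0.961), and 6.13 FPKM in NTD spine against 5.92 in control spine.

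Btg2 had the lowest mean of the brain and spine log2 ratios among the targets. Btg2 (ENSMUSG00000020423, chromosome 1, 134075170 to 134079120, minus strand) encodes an antiproliferative factor that, in mouse neuroepithelium, marks progenitors about to give rise to neurons. It had 10.05 FPKM in NTD brain and 14.1 in control brain, lower by a factor of 1.40 (1.24 to 1.58). It had 9.97 FPKM in NTD spine and 12.1 in control spine, lower by a factor of 1.21 (1.07 to 1.38). Both NTD libraries lay below both control libraries. Genes of early neurons moved with it: all 12 markers were lower in NTD brain, with a sum of 117 FPKM against 188 in control brain, and 11 of 12 were lower in NTD spine, with a sum of 60.4 FPKM against 112 in control spine. Markers of neural progenitors were lower too, 8 of 8 in NTD brain, with a sum of 346 FPKM against 415 in control brain, and 7 of 8 in NTD spine, with a sum of 257 FPKM against 302 in control spine. No marker of either list was at 0 in any library. The part of neuron or progenitor content in the Btg2 values was not tested. Immediate early genes, a class of fast stress and growth response genes, lay the other way from Btg2, with a sum of 130 FPKM in NTD brain and 76.5 in control brain, and 139 in NTD spine against 86.9 in control spine.

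The stress kinases and the cell survival genes among the targets were mixed. Plk3, a stress-responsive kinase, had 6.12 FPKM in NTD brain and 7.01 in control brain, and 5.92 in NTD spine against 7.99 in control spine. Only its spine interval excluded equality, lower by a factor of 1.35 (1.14 to 1.60). Its relative Plk2 had 10.3 FPKM in NTD brain and 9.44 in control brain, and 16.0 in NTD spine against 15.6 in control spine. Phlda3, which inhibits Akt signalling, had 2.96 FPKM in NTD brain and 3.87 in control brain, and 5.25 in NTD spine against 6.35 in control spine. Both intervals of Phlda3 include equality, with folds of 0.765 (0.561 to 1.04) in brain and 0.828 (0.654 to 1.05) in spine. Zmat3, an RNA-binding target that acts in tumour suppression in mice, was lower in both tissues. It had 4.67 FPKM in NTD brain and 5.18 in control brain, lower by a factor of 1.11 (1.01 to 1.22), and 3.54 in NTD spine against 4.39 in control spine, lower by a factor of 1.24 (1.12 to 1.38).

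None of the targets through which p53 starts apoptosis had an interval above 1 in NTD. Bax, an effector that opens the outer mitochondrial membrane and has a printed element, had 17.5 FPKM in NTD brain and 17.7 in control brain, and 16.9 in NTD spine against 17.0 in control spine. Its folds were 0.983 (0.863 to 1.12) in brain and 0.991 (0.866 to 1.13) in spine, although 12.2% of its exon length overlaps the gene model Gm45808 on the same strand. Bbc3, which encodes the BH3-only protein Puma, had 3.94 FPKM in NTD brain and 4.87 in control brain, and 4.20 in NTD spine against 5.12 in control spine. Both intervals of Bbc3 include equality, with folds of 0.810 (0.643 to 1.02) in brain and 0.819 (0.654 to 1.03) in spine. Pmaip1, which encodes the BH3-only protein Noxa, had 1.22 FPKM (55 reads) in NTD brain and 1.90 FPKM (88 reads) in control brain, lower by a factor of 1.56 (1.10 to 2.22). It had 2.82 FPKM in NTD spine and 2.72 in control spine, a fold of 1.04 (0.802 to 1.34). Perp, a membrane protein of epithelial junctions, had 4.73 FPKM in NTD brain and 5.42 in control brain, and 6.97 in NTD spine against 8.41 in control spine, lower there by a factor of 1.21 (1.01 to 1.45). Apaf1, which builds the apoptosome, had 4.69 FPKM in NTD brain and 5.46 in control brain, lower by a factor of 1.16 (1.05 to 1.29), and 5.95 in NTD spine against 5.58 in control spine. Pidd1, the scaffold that activates caspase-2, had 9.16 FPKM in NTD brain and 9.12 in control brain, and 8.55 in NTD spine against 9.50 in control spine.

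Of the remaining compared targets, Aen, Psrc1 and Fdxr each had an interval below 1 in 1 tissue. Aen, a nuclease gene, had 16.1 FPKM in NTD brain and 17.9 in control brain, lower by a factor of 1.11 (1.04 to 1.19), and 14.6 in NTD spine against 14.2 in control spine. Psrc1, a spindle protein gene, had 24.4 FPKM in NTD brain and 25.6 in control brain, and 20.5 in NTD spine against 23.4 in control spine, lower there by a factor of 1.14 (1.05 to 1.24). Fdxr, which encodes ferredoxin reductase, had 5.60 FPKM in NTD brain and 5.92 in control brain, and 5.52 in NTD spine against 6.64 in control spine, lower there by a factor of 1.20 (1.02 to 1.43). Ei24, Polk and Trp53inp1 had intervals that include equality in both tissues. Polk encodes a DNA polymerase that copies past damaged bases.

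The targets under the filter of 1 FPKM were Fas, Gdf15, Eda2r and Rrm2b. Fas, the death receptor, had 0.206 FPKM (7 reads) in NTD brain and 0.172 FPKM (6 reads) in control brain, and 0.847 FPKM (29 reads) in NTD spine against 0.954 FPKM (32 reads) in control spine. Gdf15, a stress cytokine, had 0 reads in both NTD libraries, 2 in control brain and 3 in control spine, and no fold is given since none was above 3 reads. Eda2r, a receptor of the tumour necrosis factor family, had 0.536 FPKM in NTD brain and 0.472 in control brain, and 0.572 in NTD spine against 0.449 in control spine. Rrm2b, a p53-induced subunit of ribonucleotide reductase, had 0.718 FPKM in NTD brain and 0.906 in control brain, and 0.765 in NTD spine against 0.868 in control spine. All intervals of Fas, Eda2r and Rrm2b between NTD and control include equality.

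**Figure D2:**
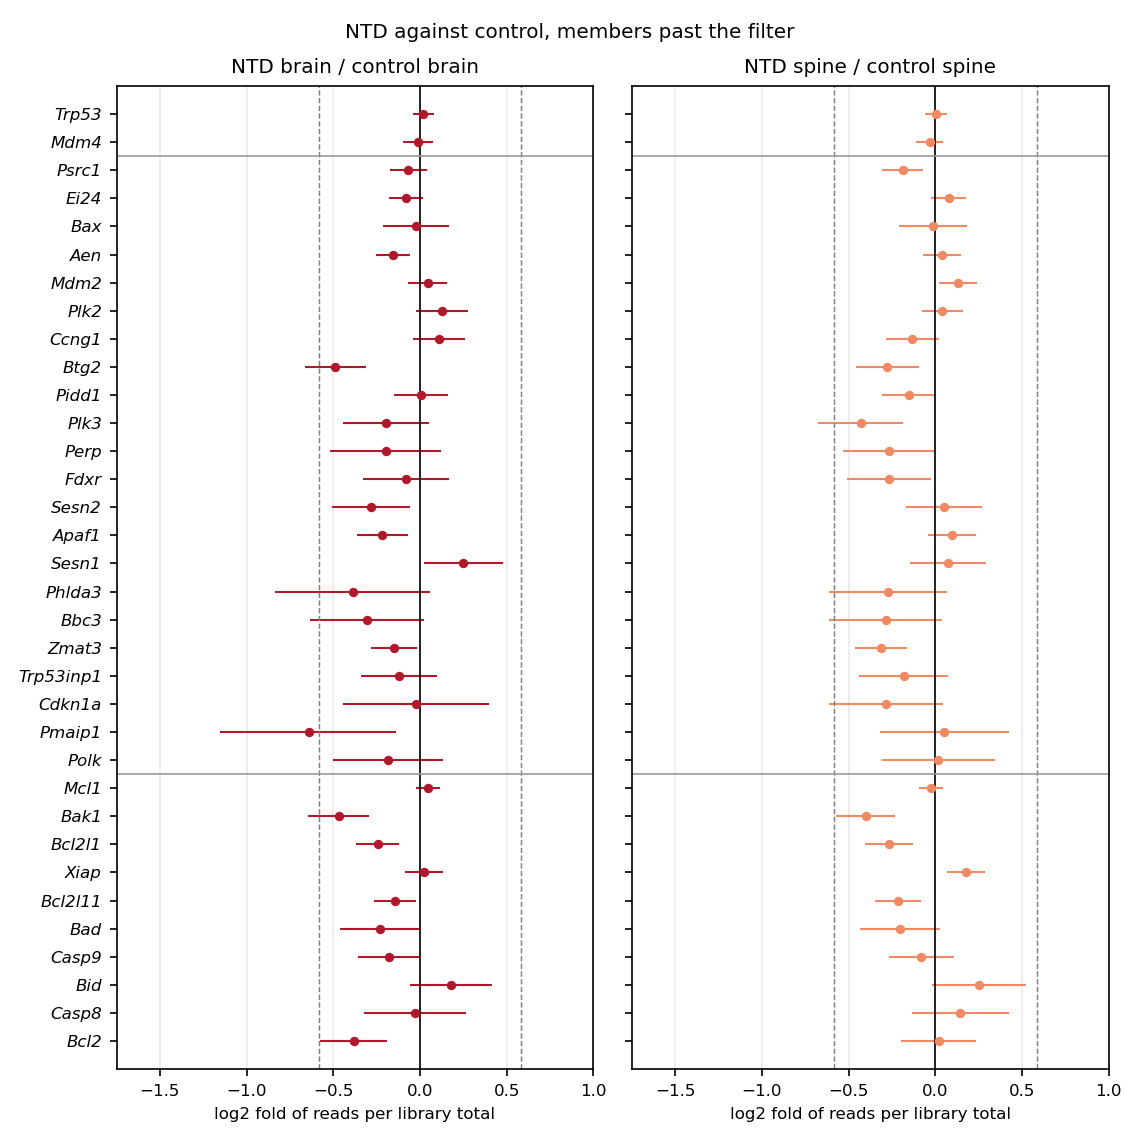
Fold of reads per library total for the 34 compared members, as log2, in NTD brain over control brain and NTD spine over control spine. Points are folds of 1 library over another, bars are 95% counting intervals, and dashed lines mark 1.5-fold. Bars of Bak1, Btg2, Bcl2l1, Bcl2l11 and Zmat3 lie below 0 in both tissues, and no bar lies above 0 in both.

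In the apoptosis machinery, 10 of 11 genes were compared and none was past 1.5-fold. In brain 3 were higher and 7 lower in NTD, with a median log2 ratio of -0.14, and -0.17 to -0.07 over the alternatives. In spine 4 were higher and 6 lower, with a median of -0.05, which came to 0.00 when each library was rescaled to the same summed FPKM and to -0.18 with a filter of 5 FPKM. Bak1 had the lowest mean of the brain and spine ratios of all members. Bak1 (ENSMUSG00000057789, chromosome 17, 27019810 to 27029009, minus strand) encodes the second effector of mitochondrial permeabilisation beside Bax. It had 11.2 FPKM in NTD brain and 15.5 in control brain, lower by a factor of 1.39 (1.22 to 1.57). It had 12.6 FPKM in NTD spine and 16.6 in control spine, lower by a factor of 1.32 (1.17 to 1.49). Both NTD libraries lay below both control libraries, in contrast to the nearly equal values of Bax. Bak1 shares 18.2% of its exon length with Ggnbp1 on the opposite strand, and whether counting used strand is not stated. Set against genes of like GC content and length, the log2 ratio of Bak1 was -0.33 in brain and -0.20 in spine, beside -0.44 and -0.38 as measured. That of Bax was 0.14 in brain and 0.20 in spine, beside -0.02 and -0.01 as measured.

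Of the genes that restrain apoptosis, Bcl2l1 was lower in NTD in both tissues, Bcl2 was lower in NTD brain, and Xiap was higher in NTD spine. Bcl2l1, which encodes Bcl-xL, had 12.9 FPKM in NTD brain and 15.2 in control brain, lower by a factor of 1.18 (1.09 to 1.29). It had 10.6 FPKM in NTD spine and 12.7 in control spine, lower by a factor of 1.20 (1.09 to 1.32). Bcl2, the founding anti-apoptotic gene, had 2.51 FPKM in NTD brain and 3.27 in control brain, lower by a factor of 1.30 (1.14 to 1.49), and 2.43 in NTD spine against 2.40 in control spine. Mcl1, the most abundant member of the machinery, had 60.6 FPKM in NTD brain and 58.6 in control brain, and 57.4 in NTD spine against 58.4 in control spine. Xiap, a direct inhibitor of caspases, had 8.35 FPKM in NTD brain and 8.22 in control brain. In spine Xiap had 9.09 FPKM in NTD and 8.05 in control, a fold of 1.13 (1.05 to 1.22). Diablo, which encodes the antagonist of Xiap released from mitochondria, stayed under 1 FPKM in every library, with 19.4% of its exons overlapping the gene model Gm49027 on the same strand.

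BH3-only genes and caspases differed in direction. Bcl2l11, which encodes Bim, had 8.20 FPKM in NTD brain and 9.07 in control brain, lower by a factor of 1.10 (1.02 to 1.20). It had 6.69 FPKM in NTD spine and 7.76 in control spine, lower by a factor of 1.16 (1.06 to 1.27). Bad, whose product growth factor signalling holds inactive, had 7.12 FPKM in NTD brain and 8.37 in control brain, lower by a factor of 1.18 (1.01 to 1.37), and 6.95 in NTD spine against 8.00 in control spine. Of the exon length of Bad, 20.5% lies opposite Gpr137, and whether counting used strand is not stated. Bid, which links death receptors to mitochondria, was the gene of the machinery with the highest mean NTD ratio. It had 5.30 FPKM in NTD brain and 4.68 in control brain, a fold of 1.13 (0.961 to 1.34), and 4.24 in NTD spine against 3.57 in control spine, a fold of 1.19 (0.985 to 1.44). Both intervals of Bid include equality, and 17.7% of its exon length lies opposite Bcl2l13. Casp8, the initiator caspase of death receptors, had 4.03 FPKM in NTD brain and 4.11 in control brain, and 4.79 in NTD spine against 4.33 in control spine. Casp9, the initiator of the mitochondrial route, had 5.57 FPKM in NTD brain and 6.31 in control brain, and 5.33 in NTD spine against 5.64 in control spine.

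Summed by role, the anti-apoptotic genes Bcl2, Bcl2l1 and Mcl1 reached 75.9 FPKM in NTD brain and 77.1 in control brain, and 70.4 in NTD spine against 73.5 in control spine. The effectors Bax and Bak1 summed to 28.6 FPKM in NTD brain and 33.2 in control brain, and 29.4 in NTD spine against 33.6 in control spine, a difference carried mostly by Bak1. The 5 BH3-only genes among the members (Bbc3, Pmaip1, Bcl2l11, Bid and Bad) summed to 25.8 FPKM in NTD brain and 28.9 in control brain. In spine they summed to 24.9 FPKM in NTD and 27.2 in control. Genes of the BCL2 family outside the members, such as Bcl2l2, Bok, Bmf, Bik and Hrk, are not in these sums. Anti-apoptotic genes made up 58.2% of the 3 sums in NTD brain and 55.4% in control brain, and 56.4% in NTD spine against 54.7% in control spine. Most of the anti-apoptotic sum was Mcl1, with 60.6 FPKM in NTD brain and 58.6 in control brain, and 57.4 in NTD spine against 58.4 in control spine. Bcl2l1 was lower in NTD in both tissues and Bcl2 in brain, so the larger share was not a rise of each of these genes. These shares are of RNA and, with 1 library per group, were not tested.

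**Figure D3:**
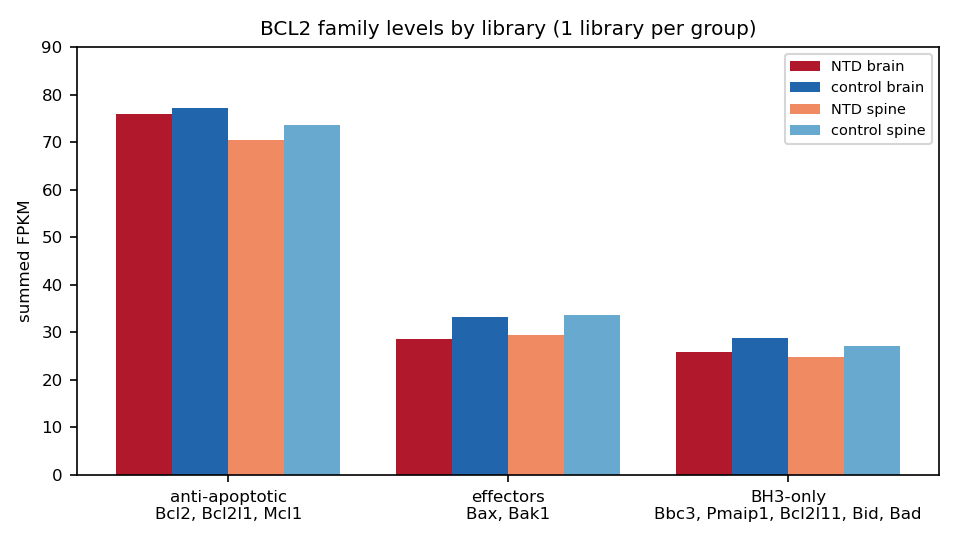
Summed FPKM by role of the BCL2 family genes among the members, in NTD brain, control brain, NTD spine and control spine, with 1 library per bar and no error. Other genes of the family are not in the sums. The effector sum is 28.6 in NTD brain and 33.2 in control brain, and 29.4 in NTD spine and 33.6 in control spine.

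Set side by side, the brain and spine comparisons gave 5 members whose interval lay below 1 in both tissues: the targets Zmat3 and Btg2, and Bcl2l1, Bcl2l11 and Bak1 of the machinery. That is 14.7% of the 34 compared members, near the 13.8% of all genes with an interval. No member had an interval above 1 in both tissues, beside 7.96% of all genes, and none had intervals on opposite sides of 1, beside 2.77%. In brain alone the interval lay below 1 for 12 members (35.3%), beside 25.7% of all genes, and above 1 for 1 member, beside 16.1%. In spine alone it lay below 1 for 9 members (26.5%), beside 26.6% of all genes, and above 1 for Mdm2 and Xiap, beside 17.2%. At a looser threshold on the log2(FPKM + 1) scale, with 1 library at least 25% above the other, Btg2, Pmaip1 and Bak1 were lower in NTD brain, beside 9.34% of all genes, and Plk3 and Bak1 in NTD spine, beside 11.1%. No member was higher in NTD at that threshold, beside 5.06% of genes in brain and 4.22% in spine. In folds of reads, Phlda3 and Bcl2 also passed it in brain, both lower in NTD. Over all genes, ratios were lower at higher GC content, with medians of 0.07 in the lowest and -0.15 in the highest GC decile in brain, and 0.06 and -0.17 in spine. Set against genes of like GC content and length, the median log2 ratio of the targets was -0.03 in brain and -0.02 in spine, and that of the machinery -0.07 in brain and -0.02 in spine. The median over members of the brain log2 ratio less the spine log2 ratio was -0.01, and -0.09 to 0.02 over the alternatives. It was not tested.

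**Figure D4:**
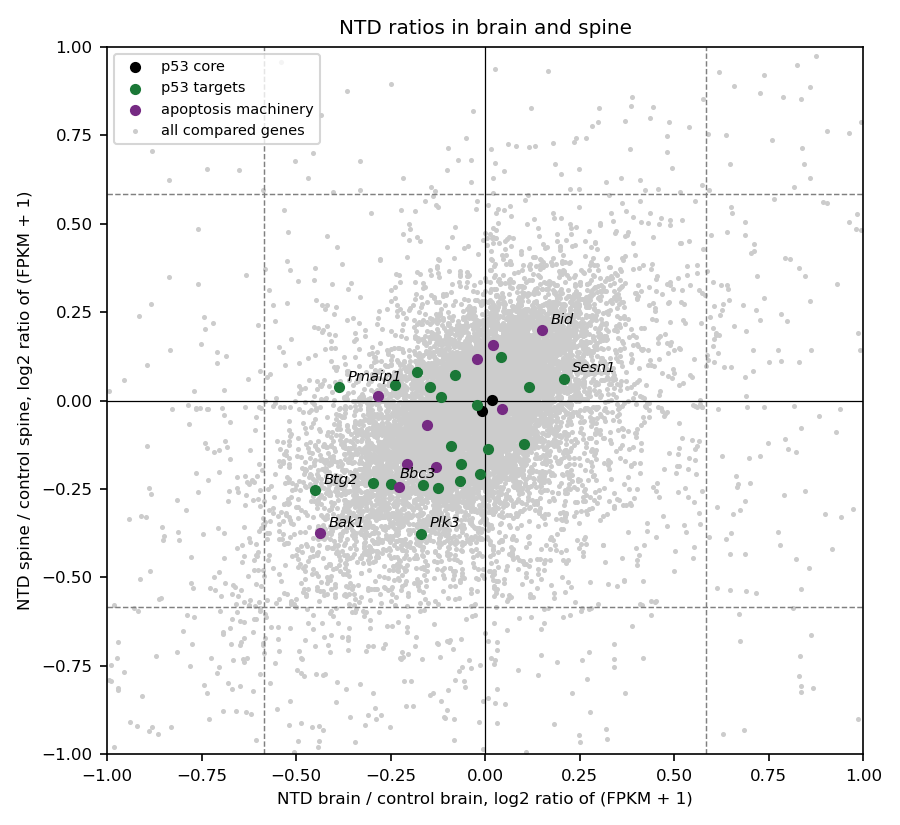
Log2 ratio of (FPKM + 1) of NTD spine over control spine against that of NTD brain over control brain, for 12624 compared genes in grey and the 34 compared members in colour. Dashed lines mark 1.5-fold, and 316 genes lie outside the axes. All members fall within the dashed lines, and Bak1 and Btg2 lie lowest along the diagonal.

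A limma fit of log2(FPKM + 1) with tissue as a block set the 2 NTD libraries against the 2 control libraries over all compared genes. It has 1 residual degree of freedom and 3.41 prior degrees of freedom, since limma moderates each variance with those of other genes. Brain and spine may come from the same embryos. Its p-values thus rest on 2 pairs of libraries and on variances shared over genes, and do not measure spread between embryos. Of 12940 genes, 10 were higher (0.0773%) and 9 lower (0.0696%) in NTD at a limma adjusted p under 0.05. With libraries rescaled to the same sum these counts were 185 and 343. No member was called. The lowest limma adjusted p among members was 0.103 for Bak1, at a log2 difference of -0.41 ± 0.06 (moderated SE, 2 pairs), lower in both pairs. Over the alternatives the limma adjusted p of Bak1 lay between 0.0331 and 0.422, and it passed 0.05 with libraries rescaled to the same sum (0.0389) and with protein-coding genes only (0.0331). Btg2 had a log2 difference of -0.35 ± 0.08 (limma adjusted p = 0.130) and Bcl2l1 of -0.24 ± 0.06 (limma adjusted p = 0.149), each lower in both pairs. For Cdkn1a the limma difference was -0.11 with a 95% interval from -0.42 to 0.20. For Mdm2 it was 0.08 with an interval from -0.08 to 0.24. At an unadjusted limma p under 0.05 stood 8 members, all lower in NTD (Bbc3, Phlda3, Btg2, Perp, Plk3, Bcl2l1, Bak1 and Bad), which is 23.5% of the 34 beside 14.7% of all genes, and 0 members higher beside 7.23%. The fit was not adjusted for GC content and length. With that adjustment the brain and spine log2 ratios were -0.10 and -0.06 for Bbc3, -0.14 and -0.02 for Phlda3, and 0.04 and -0.16 for Plk3. They were -0.10 and -0.01 for Bad, and -0.08 and -0.13 for Bcl2l1. They were -0.46 and -0.22 for Btg2, -0.22 and -0.18 for Perp, and -0.33 and -0.20 for Bak1.

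The same fit, with condition as a block, set brain against spine. Plk2, Phlda3 and Perp were lower in brain than in spine at a limma adjusted p under 0.05, which is 8.82% of the members beside 4.09% of all genes, and 0 were higher beside 2.58%. This comparison was added after the data had been seen. Plk2 (chromosome 13, 110395046 to 110400844, plus strand) encodes a stress-regulated kinase. It was lower in brain by a factor of 1.55 (1.42 to 1.70) between the NTD libraries and 1.65 (1.50 to 1.82) between the control libraries, with a limma difference of -0.63 ± 0.06 (adjusted p = 0.0130). Phlda3 was lower in brain by a factor of 1.77 (1.33 to 2.38) between the NTD libraries and 1.64 (1.27 to 2.12) between the control libraries, with a limma difference of -0.63 ± 0.08 (adjusted p = 0.0258). Perp was lower in brain by a factor of 1.47 (1.20 to 1.82) between the NTD libraries and 1.55 (1.28 to 1.88) between the control libraries, with a limma difference of -0.51 ± 0.07 (adjusted p = 0.0320). The call of Perp was lost without a mean-variance trend (limma adjusted p = 0.0527), and all 3 calls were lost with no filter on low genes, where limma called 0 genes.

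Cdkn1a and Pmaip1 were lower in brain as well, without passing the limma test. Cdkn1a was lower in brain by a factor of 1.50 (1.15 to 1.97) between the NTD libraries and 1.81 (1.40 to 2.34) between the control libraries (limma adjusted p = 0.0974). Pmaip1 was lower in brain by a factor of 2.31 (1.67 to 3.23) between the NTD libraries and 1.43 (1.08 to 1.90) between the control libraries (limma adjusted p = 0.116). Rescaling to the same sum gave both a limma adjusted p under 0.05, at 0.0252 for Cdkn1a and 0.0227 for Pmaip1. On the log2(FPKM + 1) scale, past 1.5-fold lower in brain were Pmaip1, Phlda3 and Plk2 between the NTD libraries, beside 4.88% of all genes, and Cdkn1a, Phlda3 and Plk2 between the control libraries, beside 5.27%. In folds of reads, Cdkn1a between the NTD libraries and Perp between the control libraries, given above, were past it as well. Fas, on few reads and under the filter, was lower in brain by a factor of 4.11 (1.76 to 11.1) between the NTD libraries and 5.54 (2.29 to 16.2) between the control libraries. Genes of the somites moved with these differences, with a sum of 17.95 FPKM in NTD brain and 131 in NTD spine, and 7.34 in control brain against 109 in control spine. Heart genes, given above, were also higher in spine, and the part of either cell type in the members' values was not tested.

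A further set was higher in brain. The interval lay above 1 in both the NTD and the control pair for 7 members (20.6%), beside 11.0% of all genes: Trp53inp1, Zmat3, Aen, Psrc1, Bcl2l1, Bcl2l11 and Bid. It lay below 1 in both pairs for 6 members (17.6%), beside 12.0%: Mdm4, Cdkn1a, Pmaip1, Phlda3, Perp and Plk2. No member lay on opposite sides, beside 1.88%. Trp53inp1, a stress-induced partner of p53, was higher in brain by a fold of 1.38 (1.17 to 1.64) between the NTD libraries, at 3.08 FPKM in brain and 2.23 in spine. Its fold was 1.32 (1.13 to 1.55) between the control libraries, at 3.35 FPKM in brain and 2.53 in spine. Bcl2 was higher in brain between the control libraries, with a fold of 1.36 (1.19 to 1.57), whereas the NTD libraries had a fold of 1.03 (0.892 to 1.20). Whether the tissue difference of Bcl2 depends on condition cannot be tested with 1 library per group.

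**Figure D5:**
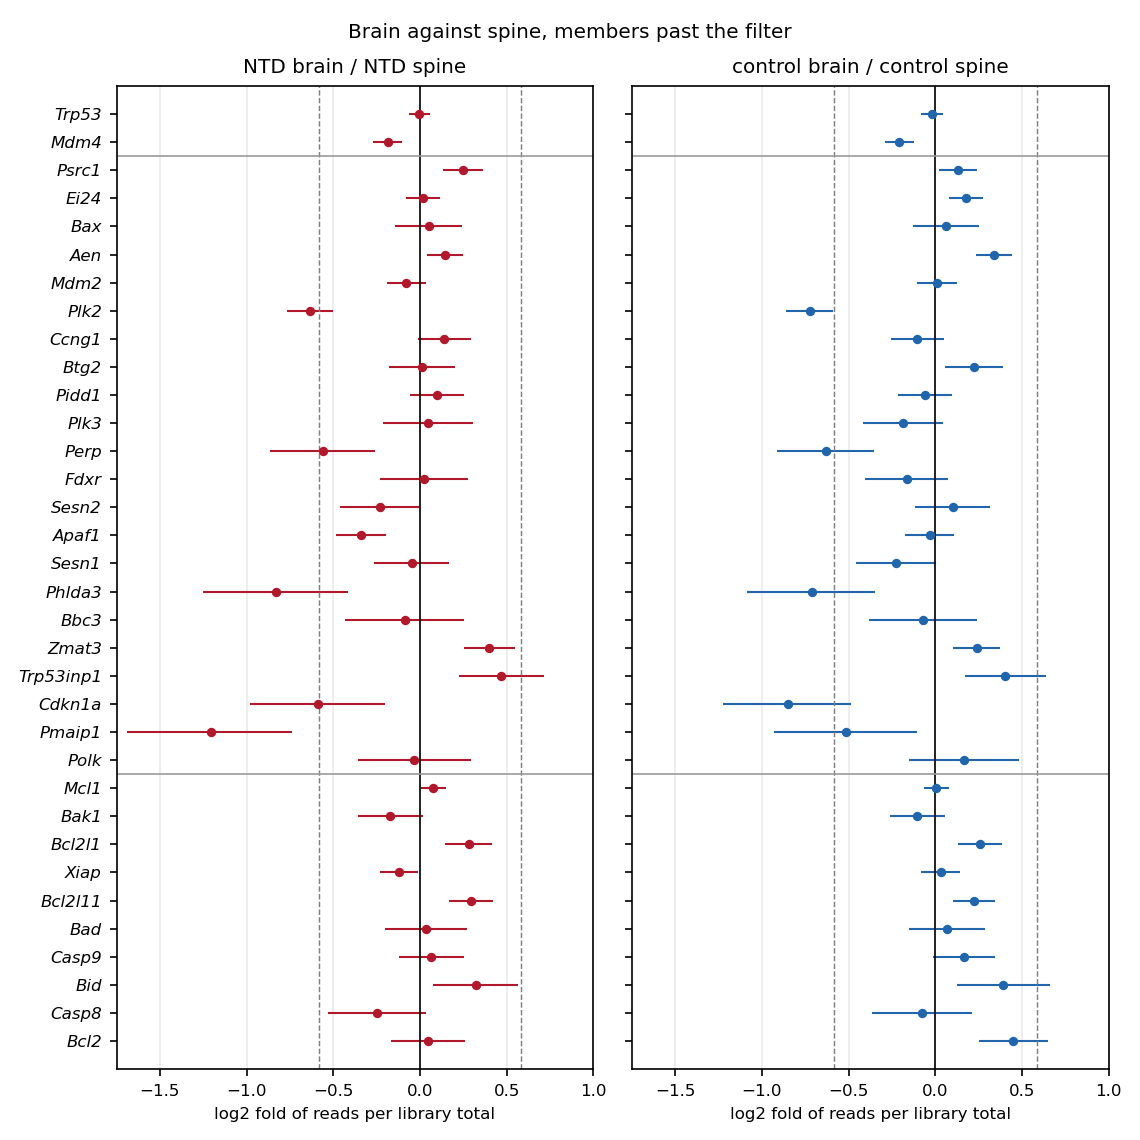
Fold of reads per library total, as log2, of NTD brain over NTD spine and of control brain over control spine for the 34 compared members. Bars are 95% counting intervals and dashed lines mark 1.5-fold. Plk2, Phlda3, Perp, Cdkn1a and Pmaip1 lie below 0 in both panels, and Trp53inp1, Zmat3, Bcl2l1, Bcl2l11 and Bid lie above 0 in both.

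Wider lists of the pathway gave no limma call between NTD and control either. Among 24 other p53 targets, 20 were compared, and 12 had a higher and 8 a lower point value in NTD brain, against 8 higher and 12 lower in NTD spine. Ddit4, an inhibitor of mTOR signalling that responds to hypoxia and stress as well as to p53, was the only one of them past 1.5-fold on the log2(FPKM + 1) scale. It had 20.03 FPKM in NTD brain and 32.6 in control brain, a fold of 0.614 (0.553 to 0.681), and 21.2 in NTD spine against 25.5 in control spine, a fold of 0.831 (0.745 to 0.926). In folds of reads, Steap3 passed it as well among the compared genes of this list, lower in NTD spine. It had 0.917 FPKM in NTD spine and 1.59 in control spine, a fold of 0.576 (0.437 to 0.756). Its brain fold was 1.09 (0.833 to 1.44). Among 24 other apoptosis genes, of which 20 were compared, Cycs, which encodes cytochrome c, was the only one of these 20 with an interval above 1 in both tissues (5.0%, beside 7.96% of all genes), with 54.9 FPKM in NTD brain and 46.3 in control brain, and 48.8 in NTD spine against 45.1 in control spine. Bcl2l2, an anti-apoptotic relative of Bcl2, was the only one of the 20 with an interval below 1 in both (5.0%, beside 13.8%), with 4.41 FPKM in NTD brain and 6.02 in control brain, and 4.64 in NTD spine against 6.10 in control spine. Bik, a BH3-only gene under the filter and so not among the 20, was the only one of the 24 past 1.5-fold on the log2(FPKM + 1) scale, in brain. It had 1.07 FPKM in NTD brain and 0.334 in control brain, a fold of 3.19 (1.47 to 7.70), and 0.908 in NTD spine against 0.386 in control spine, a fold of 2.35 (1.08 to 5.51). In folds of reads Hrk, also under the filter, passed 1.5-fold the other way. It had 0.106 FPKM in NTD spine and 0.368 in control spine, a fold of 0.288 (0.127 to 0.597). Its brain fold was 0.627 (0.268 to 1.40), at 0.118 FPKM in NTD and 0.187 in control.

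Among 15 compared regulators of p53, intervals lay above 1 for 4 in NTD brain (26.7%, beside 16.1% of all genes) and for 8 in NTD spine (53.3%, beside 17.2%). Atr, Chek1, Trp53bp1 and Sirt1 were above 1 in both (26.7%, beside 7.96%). Intervals lay below 1 for 2 in NTD brain (13.3%, beside 25.7%) and for 0 in NTD spine, beside 26.6%. By point values 7 of the 15 were higher and 8 lower in NTD brain, with a median log2 ratio of -0.01. In NTD spine 13 were higher and 2 lower, with a median of 0.10. The median half-width of the regulators' intervals in brain was 0.145 in log2, narrower than for the members. Chek1, the checkpoint kinase activated by stalled replication, had 20.2 FPKM in NTD brain and 17.0 in control brain, a fold of 1.19 (1.11 to 1.28). It had 18.3 FPKM in NTD spine and 15.7 in control spine, a fold of 1.17 (1.08 to 1.26; limma adjusted p = 0.148). Of 12 cell cycle genes that p53 lowers through p21, 4 (Birc5, Foxm1, Mybl2 and Cdc20) had intervals below 1 in both tissues (33.3%, beside 13.8% of all genes), and 1, Bub1, above (8.33%, beside 7.96%). By point values 7 of the 12 were higher and 5 lower in NTD brain, with a median log2 ratio of 0.01. In NTD spine 6 were higher and 6 lower, with a median of -0.04. Their counting intervals were narrow, with a median half-width of 0.08 in log2 in brain, beside 0.18 for the 34 compared members. After adjustment for GC content and length the spine log2 ratio turned to 0.04 for Foxm1, from -0.09 as measured, and to 0.04 for Cdc20, from -0.13. Bub1, a spindle checkpoint kinase, had 43.7 FPKM in NTD brain and 35.6 in control brain, and 45.1 in NTD spine against 34.3 in control spine. Cdc20, which activates the anaphase-promoting complex, had 146 FPKM in NTD brain and 169 in control brain, and 152 in NTD spine against 166 in control spine. The lowest limma adjusted p among these 12 was 0.111, so none passed the test.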

How the data were processed

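The authors deposited 1 table of FPKM per gene for the 4 libraries. HISAT2 2.0.1 and the genome build mm10 were used, per the submitters' processing notes, with the counter, annotation and strand setting not given in the sources used here. Identifiers were matched to GENCODE M21 (GRCm38), with 28698 matched and 67 not. FPKM times union exon length gave whole reads, within 0.01, for 28298 genes (98.6%). Compared were the 12940 genes whose mean over the libraries reached 1 FPKM, and 12721 of them have a counting interval. Library totals were 16470311 reads in NTD brain, 16605133 in NTD spine, 16911677 in control brain and 16272101 in control spine.

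Ratios were taken as log2 of (FPKM + 1). Folds of recovered reads have exact conditional binomial (Clopper-Pearson) intervals at 95%, and no fold is given where both libraries had at most 3 reads. With 1 library per group no test within a tissue was made. NTD was also compared with tissue as a block in limma 3.58.1 (R 4.3.3), with a trend and Benjamini-Hochberg adjustment over all compared genes, two-sided. Other steps used Python 3.11.15, numpy 2.4.6, pandas 2.3.3 and scipy 1.17.1. Of all steps, the fold intervals, the log2 ratios, the adjustment for GC content and length and the limma fit were tested on simulated data.

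The members and all lists were chosen with earlier results of these data known. Every member could be named. Those at or past 1.5-fold, and the 4 highest and 4 lowest of each list by the mean NTD log2 ratio, were to be described, and genes of other lists were named where past 1.5-fold or in a count of 5 or fewer. Chek1, Bub1, Cdc20, Steap3 and Hrk were given values after their values had been seen. Alternatives were other pseudocounts, filters, scalings and thresholds, adjustment for GC content and length, no trend, and protein-coding genes only. Adjusted folds of each member, medians without members that overlap another gene model, the alternatives of the brain-less-spine difference, and the comparison of brain with spine in limma were added after the data had been seen.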

Additional observations from a re-analysis of the deposited data

Results flagged for a closer look

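Among regulators of p53, Hipk2, a kinase that phosphorylates p53, lay on opposite sides of equality in the tissues. Its fold of NTD over control was 0.813 (0.757 to 0.873) in brain, at 9.54 FPKM in NTD and 11.7 in control, and 1.17 in spine, with an interval above 1, at 12.9 FPKM in NTD and 11.1 in control. The difference was not tested, since each group has 1 library. Trp53bp1, a damage response protein that binds p53, lay on opposite sides of equality between brain and spine, with a fold of brain over spine of 0.924 in NTD and 1.06 in control. That difference was not tested either. After adjustment for GC content and length both of its log2 ratios of brain over spine were above 0, at 0.03 in NTD and 0.07 in control, whereas those of Hipk2 stayed on opposite sides, at -0.17 in brain and 0.23 in spine. Among all genes with an interval, 2.77% lay on opposite sides in the comparison that holds Hipk2 and 1.88% in that of Trp53bp1.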

How the results depend on the processing

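List medians of the NTD ratio kept their sign under all alternatives but 1: the machinery median in spine, -0.05 as reported, was 0.00 with libraries rescaled to the same sum and -0.18 with a filter of 5 FPKM. The target median in spine, -0.13 as reported, was -0.01 with a filter of 5 FPKM. The medians have no error of their own. Members past 1.5-fold in NTD brain, 0 as reported, were 1 with a pseudocount of 0.1 FPKM (Pmaip1), 3 with a 25% threshold and 13 by the counting interval. In NTD spine, 0 as reported, they were 2 with a 25% threshold and 11 by the counting interval. For the 25% threshold and the counting interval, the shares of all genes between NTD and control are given above. Between control brain and control spine, 3 as reported, they were 0 with a pseudocount of 5 FPKM, 1 with a filter of 5 FPKM, 1 after adjustment for GC content and length, 0 at 2-fold, 6 with a 25% threshold and 16 by the counting interval. Of the 6, 1 was higher and 5 lower in brain, beside 975 and 1375 of the 12940 compared genes. Of the 16, 10 were higher (29.4% of compared members) and 6 lower (17.6%), beside 20.0% and 19.2% of all genes. Members called by limma between NTD and control, 0 as reported, were 1 (Bak1) with libraries rescaled to the same sum and 1 (Bak1) with protein-coding genes only. Between brain and spine, 3 members were called as reported, beside 6.67% of all genes, and 0 with no filter, beside 0%. They were 5 with the same sum, beside 11.8%, and 6 with protein-coding genes only, beside 13.5%. Except for thresholds, the cause was not tested. Genes called by limma between NTD and control, 19 as reported, were 32 and 83 with pseudocounts of 0.1 and 5 FPKM, 0 with no filter, 119 with a filter of 5 FPKM, 528 with the same sum, 82 with median-ratio scaling, 0 with no trend and 452 with protein-coding genes only. Of 68 NTD folds of members, 59 stayed within their counting interval after adjustment for GC content and length and 9 moved beyond it, and all 68 stayed within it on the FPKM + 1 scale and with median-ratio scaling. No paired analysis was possible by replicate number, because each group has 1 library, and the blocks of the limma fits are tissue or condition. Leaving out a library was not possible either, since it empties a group. For Cdkn1a, Pmaip1, Phlda3 and Bbc3, with 55 to 177 reads, depth limits what can be seen, and differences between embryos cannot be told apart from differences between conditions.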
